A study of Mus musculus with 8 samples.

Results

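Chemokines are small secreted proteins that steer the movement of leukocytes, and chemokine receptors are the G protein-coupled receptors on the moving cells that read them. In adipose tissue the family is best known for drawing in monocytes, which become tissue macrophages, and for placing lymphocytes and eosinophils. The genes described here were all non-control array probes whose gene symbol was Ccl, Cxcl, Cx3cl, Xcl, Ccr, Cxcr, Cx3cr or Xcr followed by digits only, with an a or b allowed after the digits. The scanner files used here carry no gene names, so symbols were taken from the annotation of the platform and brought up to date by Entrez identifier. The array held 52 such genes on 68 probes, 35 ligands and 17 receptors. A gene was kept when, in 1 group or more, its probe was well above background in each of the group's samples, and 34 of the 52 genes were kept, 24 ligands and 10 receptors, among 15444 genes tested in all.

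RNA came from mice. The source name in the labels is the epididymal fat pad and the extraction protocol speaks of adipose tissue, while the titles and the tissue field say only epididymal tissue. CFT Swiss albino mice aged 5 weeks were injected intraperitoneally for 8 days with saline, with obestatin, with the N-terminal peptide (a fragment of obestatin) or with Nt8U (an analog of that fragment), with no other treatment. Obestatin is a peptide cut from the same precursor as the hormone ghrelin. The labels give the peptide dose once as 80 ng/kg with 6 mice per group and once as 80 nmol/kg with 3 mice per group, and these statements were not reconciled. Each group had 2 samples on 1 array of its own, replicate 1 labelled with Cy3 and replicate 2 with Cy5, so that array and group cannot be told apart. No label says whether a sample was a single mouse or a pool, so the spread behind each p-value is that between these samples alone and may be technical. Median signals lay between 73 and 231.5 intensity units and median backgrounds between 22 and 31. Precision is limited by how few arrays there are.

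Marker genes of other tissues differed widely between the samples, and their part in the results that follow was not tested. Levels are log2 normalized intensities throughout. The median level of 16 genes of the epididymal duct, such as the secreted lipocalins, was 16.42 and 10.85 in the saline samples, 8.97 and 7.88 with obestatin, 11.22 and 6.79 with the N-terminal peptide, and 6.39 and 6.80 with Nt8U. The median of 16 testis germ cell genes, such as the protamines, was 15.57, 15.25 and 14.42 in replicate 2 of saline, N-terminal peptide and Nt8U, and between 8.75 and 11.79 in the other 5 samples. Summed over that list, the linear intensities ran from 29000 to 604000 in saline, 111000 to 319000 with obestatin, 31600 to 464000 with the N-terminal peptide and 17800 to 320000 with Nt8U. Adipocyte genes were present in all 8 samples, with medians between 8.67 in replicate 2 of the N-terminal peptide and 15.10 in replicate 1 of Nt8U. In such bulk samples, fewer cells of a type and less RNA per cell cannot be told apart.

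Of the 34 genes, 21 were well above background in all 8 samples. Another 4 genes (Ccl11, Cxcl13, Cxcr4 and Cxcr6) were so in both samples of 3 groups, and 7 genes (Ccl4, Ccl7, Ccl12, Ccr3, Ccr6, Ccr7 and Ccr9) in both samples of 2 groups. The mucosal ligand Ccl28 passed through saline only and the neutrophil attractant Cxcl1 through Nt8U only. A gene that passed through the groups where it is high had to differ between groups, so the counts over the 34 genes are descriptions. No probe of the 34 genes was saturated. Among the 18 genes that did not pass, 12 were above background in no sample: the neutrophil attractants Cxcl2, Cxcl3, Cxcl5 and Cxcl15, the receptors Ccr1, Ccr8 and Ccr10, and the ligands Ccl3, Ccl20, Ccl22, Cxcl11 and Cxcl17.

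To show the start regions of the genes whose values stand out below, the 250 bases before the start of the gene were taken from RefSeq (build GRCm38.p6). A promoter entry was found for 26 of the 34 genes. Capitals mark matches, on either strand, to 4 motifs: the NF-kB core GGGNNTTTC, the interferon-response core GAAANNGAA, the STAT motif TTCNNNGAA and the TATA box TATAAA. Ccl6, Ccl8 and Ccl9 are CC ligands of the chromosome 11 cluster, Cxcl9 and Cxcl10 are interferon-induced CXC ligands that neighbour each other on chromosome 5, and Ccl21a is a lymphoid ligand. They lie at chr11:83593088-83593337 (minus strand), chr11:82114935-82115184 (plus strand), chr11:83578637-83578886 (minus strand), chr4:42773992-42774241 (minus strand), chr5:92328080-92328329 (minus strand) and chr5:92348890-92349139 (minus strand), in that order below.
Ccl6: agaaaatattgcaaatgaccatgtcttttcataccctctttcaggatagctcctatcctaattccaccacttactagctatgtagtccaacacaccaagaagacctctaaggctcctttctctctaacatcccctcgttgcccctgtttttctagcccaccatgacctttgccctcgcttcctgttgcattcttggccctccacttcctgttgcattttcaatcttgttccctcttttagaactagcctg
Ccl8: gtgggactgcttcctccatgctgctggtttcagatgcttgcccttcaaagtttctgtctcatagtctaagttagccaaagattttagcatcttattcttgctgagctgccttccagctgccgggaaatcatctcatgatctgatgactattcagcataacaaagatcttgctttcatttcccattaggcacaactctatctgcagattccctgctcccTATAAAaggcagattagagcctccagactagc
Ccl9: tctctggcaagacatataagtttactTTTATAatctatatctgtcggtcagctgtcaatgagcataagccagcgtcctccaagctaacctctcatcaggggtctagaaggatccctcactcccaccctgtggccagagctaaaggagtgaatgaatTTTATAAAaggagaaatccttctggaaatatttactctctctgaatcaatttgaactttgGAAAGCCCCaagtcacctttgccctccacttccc
Ccl21a: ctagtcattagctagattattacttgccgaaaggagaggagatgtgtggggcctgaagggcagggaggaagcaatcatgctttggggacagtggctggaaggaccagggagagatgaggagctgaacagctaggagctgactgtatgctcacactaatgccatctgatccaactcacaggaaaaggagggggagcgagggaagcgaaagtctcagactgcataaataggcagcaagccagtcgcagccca
Cxcl9: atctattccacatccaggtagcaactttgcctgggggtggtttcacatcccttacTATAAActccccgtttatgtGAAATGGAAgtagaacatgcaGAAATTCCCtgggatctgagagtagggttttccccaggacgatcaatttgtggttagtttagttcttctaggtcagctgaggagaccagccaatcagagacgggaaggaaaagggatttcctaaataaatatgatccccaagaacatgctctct
Cxcl10: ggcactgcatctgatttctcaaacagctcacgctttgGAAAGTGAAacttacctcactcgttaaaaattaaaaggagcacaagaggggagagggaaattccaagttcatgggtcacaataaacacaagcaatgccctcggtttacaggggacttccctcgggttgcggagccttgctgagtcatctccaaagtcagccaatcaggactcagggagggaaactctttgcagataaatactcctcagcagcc
Ccl9 held the NF-kB core from 34 bases before its start, and Cxcl9 held it from 154 bases before its start. The interferon-response core began 213 bases before the start of Cxcl10 and 175 bases before that of Cxcl9, and Ccl8 held a TATA box 32 bases before its start. Ccl6 and Ccl21a held none of the 4 motifs in this window. Over the 26 genes, the NF-kB core occurred before 6 (Ccl9, Ccr3, Cxcl1, Cxcl9, Cxcr3 and Cxcr4), the interferon-response core before 5 (Ccl19, Ccr2, Cxcl9, Cxcl10 and Cxcl14), the STAT motif before 3 (Ccl17, Ccr6 and Cxcl14) and the TATA box before 8. The same windows of all 27025 promoters held them in 3.79%, 7.16%, 7.18% and 13.0%, respectively. The NF-kB and interferon-response cores were shortened by 1 letter at an end after the longer forms had been searched, and the longer forms matched fewer promoters, both of these genes and of all genes. A match is a description of the letters and not a binding site. No match overlapped a match of another motif, and the TATA box overlapped itself on opposite strands 2 times, before Ccl9 and before Cxcr4. By chromosome, 6 of the 26 genes lay on chromosome 9, among them Ccr2, Ccr3, Ccr9, Cx3cr1, Cxcr6 and Xcr1, and 4 each on chromosomes 11 and 5.

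With obestatin, most ligands and several receptors had higher levels than with saline. The difference over the 34 genes had a median of 1.18 log2 units, against -0.01 over all 15444 genes, and was positive for 27 genes and negative for 7. At an unadjusted p under 0.05, 17 of the 34 genes were higher and none lower, where 7.19% of all genes were higher and 1.42% lower. Both obestatin samples lay above both saline samples for 24 genes (25.8% of all genes) and below them for 1 gene, Ccl28 (13.3% of all genes). Ccl28 passed the filter only through saline, which favours a lower value here. Over the 32 genes above background in both samples of more than 1 group, these counts were 23 and 0. No gene of the array passed an adjusted p of 0.05 in this or any other comparison (limma with Benjamini-Hochberg adjustment, 3 residual and 1.68 prior degrees of freedom), and the lowest adjusted p among the 34 genes was 0.538 here. A permutation of 2 against 2 samples cannot go below an exact two-sided p of 0.333. Over the 21 genes above background in all samples the median was 1.32 and 13 genes were higher at an unadjusted p under 0.05.

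**Figure D1:**
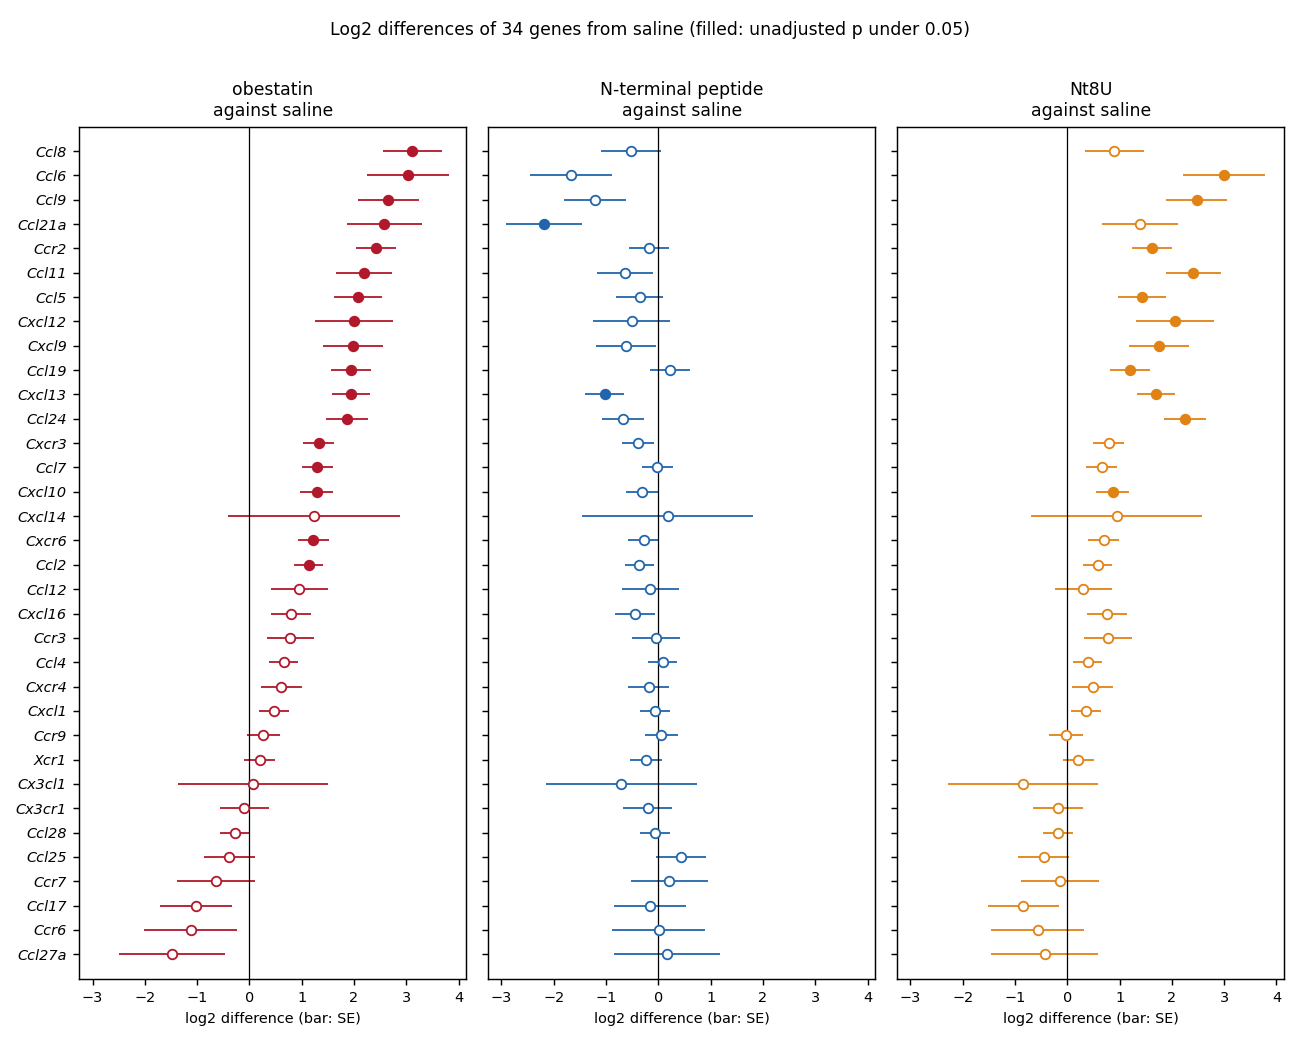
Log2 difference from saline (x axis, bars are standard errors) of each of the 34 genes for obestatin, the N-terminal peptide and Nt8U, ordered by the obestatin difference; filled points have an unadjusted p under 0.05. There are 17 filled points on the higher side for obestatin, 2 on the lower side for the N-terminal peptide and 11 on the higher side for Nt8U, and no gene passed the adjusted threshold.

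The monocyte-attracting CC ligands are Ccl2, Ccl7 and Ccl12, which act through Ccr2, and Ccl8, and all 4 had higher means with obestatin. Ccl8, known in mice as a ligand of Ccr8, measured 9.00 and 7.26 in the saline samples, 11.62 and 10.88 with obestatin, 8.88 and 6.33 with the N-terminal peptide, and 9.38 and 8.69 with Nt8U. Both obestatin samples stood above all other samples, while the saline, N-terminal peptide and Nt8U samples overlapped. The difference between obestatin and saline was 3.12 log2 units (SE 0.567, limma unadjusted p = 0.00335, adjusted p = 0.538), the largest among the 34 genes. Ccl2, the classical monocyte chemoattractant, measured 7.25 and 6.96 with saline and 8.57 and 7.91 with obestatin, a difference of 1.14. Ccl7, a close relative of Ccl2, was 1.30 higher, and Ccl12, a rodent paralog of Ccl2, was 0.96 higher (SE 0.545) and was not above background in 1 saline sample.
The receptor Ccr2, which marks inflammatory monocytes, followed the same order of groups. Its levels were 8.03 and 6.90 with saline, 10.60 and 9.19 with obestatin, 8.40 and 6.18 with the N-terminal peptide, and 9.71 and 8.46 with Nt8U. The obestatin samples lay above every saline and N-terminal peptide sample, and their difference from saline was 2.43 (SE 0.384, limma unadjusted p = 0.00186, adjusted p = 0.538).

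Among the inflammatory CC ligands, Ccl6 and Ccl9 differed most from saline with obestatin and with Nt8U. Ccl6, a macrophage-expressed ligand of Ccr1 found in rodents, measured 10.35 and 9.42 with saline, 13.80 and 12.04 with obestatin, 10.22 and 6.22 with the N-terminal peptide, and 13.90 and 11.86 with Nt8U. The obestatin and Nt8U samples overlapped each other and lay above all saline and N-terminal peptide samples. The obestatin difference was 3.04 (SE 0.780, limma unadjusted p = 0.0131, adjusted p = 0.538). Ccl9, a further Ccr1 ligand of mice, had the same order: 8.59 and 8.38 with saline, 11.78 and 10.50 with obestatin, 8.51 and 6.04 with the N-terminal peptide, and 11.75 and 10.17 with Nt8U. Its obestatin difference was 2.66 (SE 0.588). Ccl5, a T cell and monocyte attractant, was 2.08 higher (SE 0.455), from 8.88 and 8.39 with saline to 11.33 and 10.09 with obestatin. Ccl4, an inflammatory CC ligand, was not above background in either saline sample and was at least 1.57-fold higher with obestatin. Such a bound sets the mean of the brighter group against, on each array, the higher of the probe's own signal and the lowest signal found well above background. Ccr1 itself was above background in no sample.

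**Figure D2:**
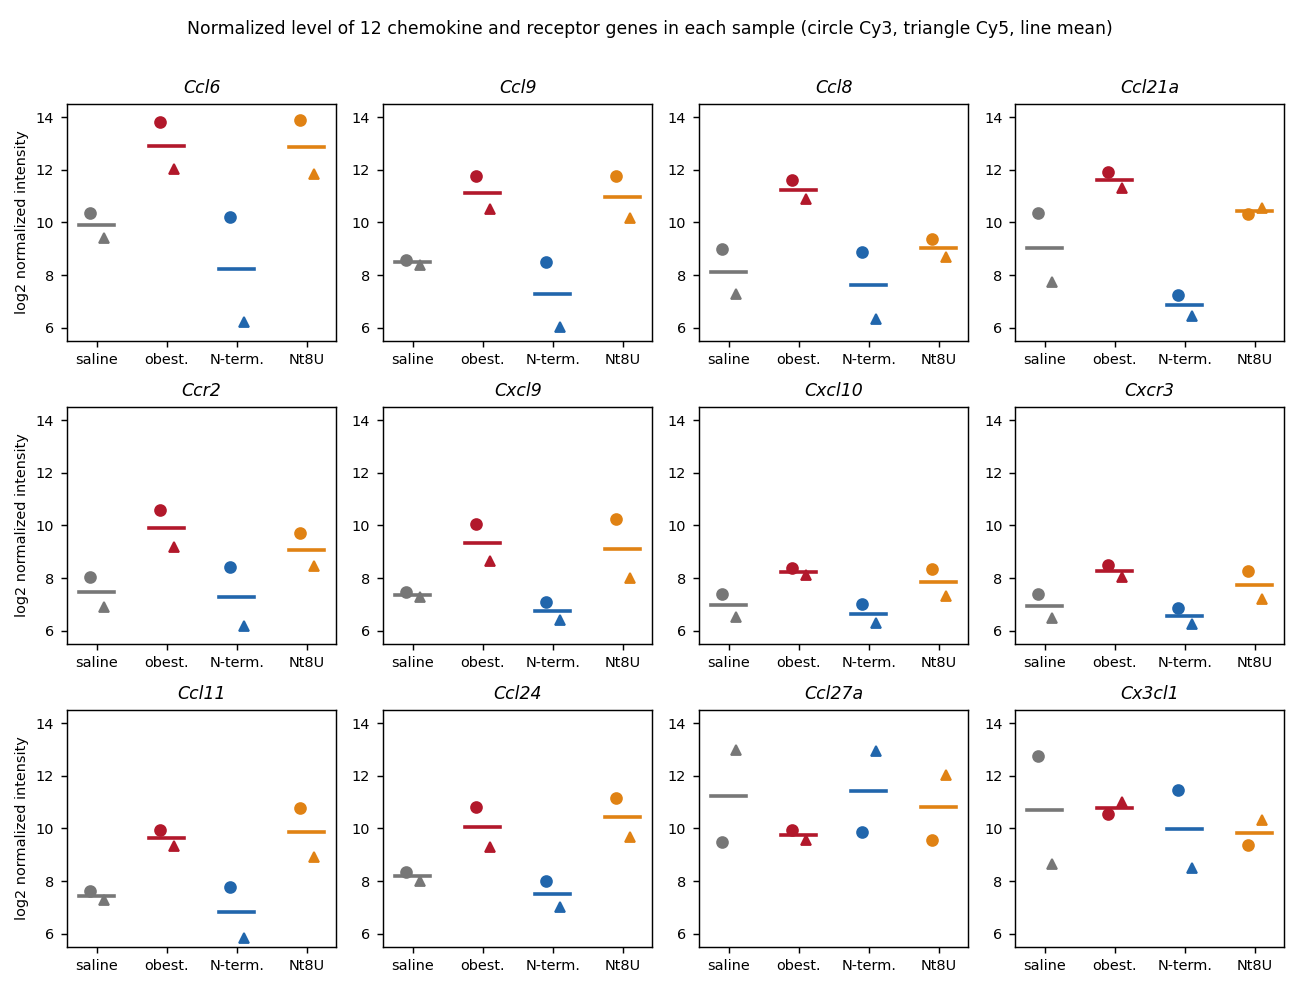
Log2 normalized intensity (y axis) of 12 genes in each of the 8 samples by group; circles are Cy3 samples (replicate 1), triangles Cy5 samples (replicate 2) and lines group means. Ccl6 and Ccl9 are high with obestatin and Nt8U, Ccl8 stands out with obestatin at 11.62 and 10.88, Ccl27a is high in the Cy5 samples of saline, N-terminal peptide and Nt8U, and Cx3cl1 splits within saline between 12.74 and 8.65.

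Among the eosinophil and type 2 ligands, the eotaxins Ccl11 and Ccl24, which attract eosinophils through Ccr3, were higher with obestatin and Ccl17, a ligand of Ccr4 on T helper cells, was not. Ccl11 measured 7.61 and 7.27 with saline, 9.95 and 9.33 with obestatin, 7.78 and 5.85 with the N-terminal peptide, and 10.79 and 8.92 with Nt8U. Every obestatin and Nt8U sample exceeded every saline and N-terminal peptide sample. The obestatin difference was 2.20 (SE 0.535) for Ccl11 and 1.87 (SE 0.405) for Ccl24. The receptor Ccr3 was not above background in either saline sample and was at least 1.72-fold higher with obestatin (limma adjusted p = 0.644).
The interferon-induced ligands Cxcl9 and Cxcl10 attract activated T cells and natural killer cells through Cxcr3, and all 3 genes had p under 0.05 before adjustment. Cxcl9 measured 7.47 and 7.26 with saline, 10.04 and 8.65 with obestatin, 7.08 and 6.42 with the N-terminal peptide, and 10.24 and 8.00 with Nt8U. Its obestatin difference was 1.98 (SE 0.569), beside 1.29 (SE 0.316) for Cxcl10 and 1.32 (SE 0.303) for Cxcr3. The levels of Cxcr3 were 7.38 and 6.49 with saline, 8.49 and 8.02 with obestatin, 6.84 and 6.24 with the N-terminal peptide, and 8.26 and 7.19 with Nt8U. Cxcr6, the receptor for the membrane-bound ligand Cxcl16, was 1.22 higher (SE 0.293), while Cxcl16 was 0.80 higher with overlapping samples.

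The 10 homeostatic and lymphoid ligands ranged from -1.49 to 2.58 in their difference between obestatin and saline, and 4 of them had an unadjusted p under 0.05. Ccl21a and Ccl19 guide lymphocytes and dendritic cells that bear Ccr7, Cxcl13 guides B cells that bear Cxcr5, and Cxcl12 retains leukocytes and progenitors that bear Cxcr4. Ccl21a measured 10.35 and 7.74 with saline, 11.93 and 11.31 with obestatin, 7.25 and 6.45 with the N-terminal peptide, and 10.32 and 10.54 with Nt8U. The obestatin samples were the highest and the N-terminal peptide samples the lowest, with no overlap between these groups. The obestatin difference was 2.58 (SE 0.723) for Ccl21a, 2.01 (SE 0.743) for Cxcl12 on the probe used, 1.95 (SE 0.384) for Ccl19 and 1.94 (SE 0.369) for Cxcl13. Ccl21a, Ccl27a and Ccl19 have near-identical copies in the mouse genome, and their probes may read several of them. A second probe of Ccl19 gave an obestatin difference of 3.50, and a second probe of Cxcl12 gave 1.01. Of their receptors, Cxcr4 was 0.61 higher (SE 0.394) and Ccr7 was 0.64 lower (SE 0.740), neither with p under 0.05.
For 5 genes (Ccl17, Ccl25, Ccl27a, Ccr6 and Ccr7) replicate 2 exceeded replicate 1 by over 0.5 log2 units in the saline, N-terminal peptide and Nt8U groups, the samples with the highest germ cell genes. Ccl27a, a skin-homing ligand that is known to be made in mouse testis as well, measured 9.49 and 12.98 with saline, 9.93 and 9.57 with obestatin, 9.87 and 12.94 with the N-terminal peptide, and 9.56 and 12.04 with Nt8U. The difference between obestatin and saline was 0.44 in the Cy3 samples and -3.41 in the Cy5 samples, so the mean of -1.49 (SE 1.017) described neither. Ccr6, the receptor for Ccl20, measured 6.32 and 9.32 with saline against 6.86 and 6.53 with obestatin. The part of the germ cell genes in these values was not tested beyond the comparison by dye given here.
The same samples differed for genes that did not pass. Ccr4, Ccl1, Cxcr5 and Xcl1 were above background in replicate 2 of saline, N-terminal peptide and Nt8U, and Ccr4, a receptor of T helper and regulatory T cells, reached 9.19, 8.45 and 8.42 there against 6.10 to 6.84 in the other samples on its brighter probe.
A further pair of ligands split within groups in another way. Cx3cl1, the membrane-anchored ligand of Cx3cr1, measured 12.74 and 8.65 with saline, 10.53 and 11.01 with obestatin, 11.48 and 8.51 with the N-terminal peptide, and 9.39 and 10.30 with Nt8U. Cxcl14, an epithelial ligand, measured 10.33 and 7.24, 9.45 and 10.61, 10.60 and 7.33, and 8.59 and 10.87 in the same order. In both genes the low samples of saline and N-terminal peptide were those with the most germ cell RNA. In Nt8U the sample with the most germ cell RNA was the higher one. Duct gene medians were also lower in the low samples of saline (10.85 against 16.42) and N-terminal peptide (6.79 against 11.22), but ran the other way with obestatin. The part of either tissue was not tested. The standard errors of 1.435 for Cx3cl1 and 1.643 for Cxcl14 allow no statement on the peptides. Cx3cr1, a receptor of resident monocytes and macrophages, differed from saline by -0.10 (SE 0.470) with obestatin.

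**Figure D3:**
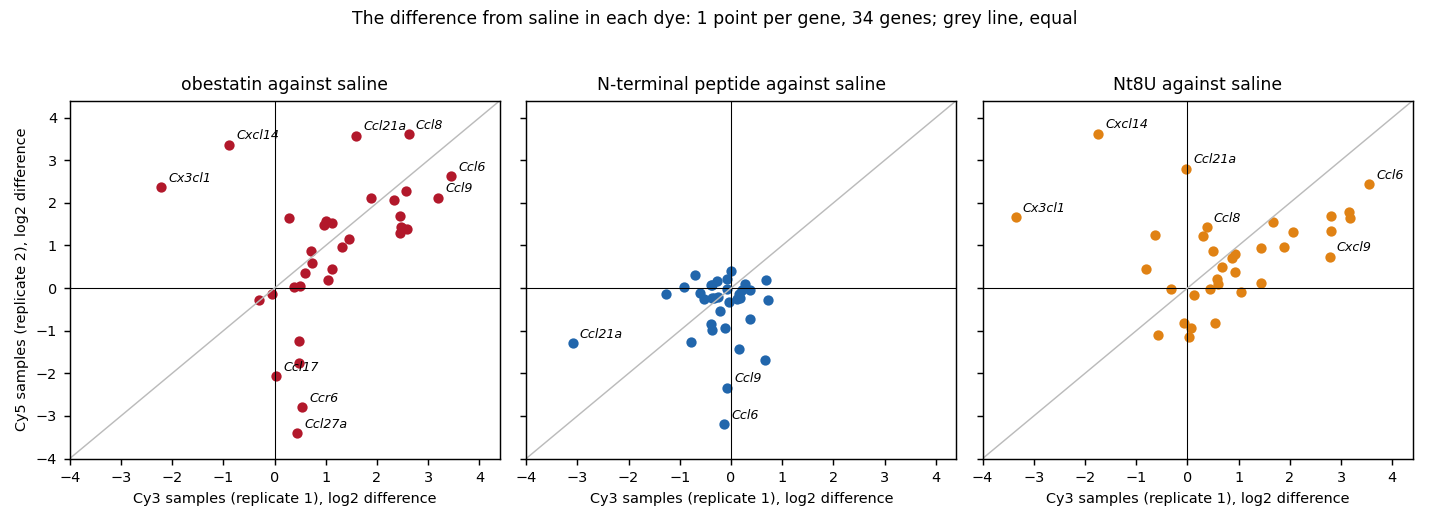
Log2 difference from saline in the Cy3 samples (x axis, replicate 1) and the Cy5 samples (y axis, replicate 2) for the 34 genes, 1 panel per peptide; the grey line marks equal differences. Most genes lie in the upper right for obestatin and Nt8U, Ccl27a and Ccr6 fall below 0 in the Cy5 samples for obestatin, and Ccl6 with the N-terminal peptide is -0.13 in Cy3 and -3.20 in Cy5.

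The 2 dyes gave separate single-sample differences. The median over the 34 genes for obestatin was 1.02 in the Cy3 samples and 1.33 in the Cy5 samples, for Nt8U 0.59 and 0.77, and for the N-terminal peptide -0.13 and -0.23. Leaving aside the 3 germ-cell-rich samples, those with the highest germ cell medians, the median difference of obestatin from saline was 0.80. Obestatin replicate 1 stayed in, although its summed germ cell intensity of 319000 was close to the 320000 of Nt8U replicate 2, which was left out. The fit without those 3 samples leaves 1 sample, labelled with Cy3, in each group other than obestatin, and has no dye term. Its whole spread comes from the pair of obestatin samples, 1 per dye, so dye and group are mixed in the 0.80. The count of genes higher with obestatin at an unadjusted p under 0.05, taken after seeing the data, was 10 there in place of 17, where 9.75% of all genes were higher. Without saline replicate 1 that count was 9, where 1.57% of all genes were higher.

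With the N-terminal peptide, the 34 genes lay close to saline or below it. The median difference was -0.22, against 0.02 over all genes, and 26 genes had a negative and 8 a positive difference. At an unadjusted p under 0.05, 2 genes were lower and none higher, where 0.654% of all genes were lower and 0.11% higher, and the lowest adjusted p among the 34 genes was 1. Both N-terminal peptide samples lay below both saline samples for 6 genes (4.80% of all genes) and above them for none (4.34% of all genes). The 2 genes were Ccl21a, with a difference of -2.19 (SE 0.723, limma unadjusted p = 0.0316, adjusted p = 1), and Cxcl13, with -1.03 (SE 0.369, limma unadjusted p = 0.0418, adjusted p = 1). For Ccl21a the difference was -3.09 in the Cy3 samples and -1.29 in the Cy5 samples, and without saline replicate 1 it was -1.09. The count of 2 lower genes was 0 without replicate 2 of the N-terminal peptide, and 1 without saline replicate 2 or without either Nt8U sample. Cxcl13 measured 7.63 and 7.25 with saline and 6.85 and 5.97 with the N-terminal peptide, and the second of these was not above background. Ccl6 and Ccl9 had mean differences of -1.67 (SE 0.780) and -1.21 (SE 0.588), but in the Cy3 samples they were -0.13 and -0.08. Ccl19 differed by 0.22 on the probe used and by -0.37 on its second probe, so its direction is not settled. Ccr2 differed by -0.18, with a 95% confidence interval from -1.18 to 0.83. The authors' deposited table of genes changed by the N-terminal peptide lists 37 higher and 72 lower probes, and none of them belongs to these genes.

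With Nt8U, many ligands again had higher means than with saline, led by Ccl6, Ccl9, Ccl11 and Ccl24. The median difference from saline was 0.72, against -0.12 over all genes, with 25 genes positive and 9 negative. At an unadjusted p under 0.05, 11 genes were higher and none lower, where 6.82% of all genes were higher and 1.25% lower, and the lowest adjusted p among the 34 genes was 0.453. Both Nt8U samples lay above both saline samples for 16 genes (14.8% of all genes) and below them for 1 gene, Ccl28 (10.8% of all genes). Ccl28 passed the filter only through saline. Over the 32 genes above background in both samples of more than 1 group, these counts were 15 and 0. The largest differences were 2.99 (SE 0.780) for Ccl6, 2.48 (SE 0.588) for Ccl9, 2.41 (SE 0.535) for Ccl11 and 2.25 (SE 0.405) for Ccl24. Ccl24, known as eotaxin-2, measured 8.36 and 8.00 with saline, 10.82 and 9.29 with obestatin, 7.99 and 7.01 with the N-terminal peptide, and 11.17 and 9.69 with Nt8U. Its Nt8U difference had the smallest unadjusted p of the 34 genes in this comparison (limma, 0.00319, adjusted p = 0.453). Cxcl12 was 2.07 higher on the probe used and 0.20 higher on its second probe, so its size depends on the probe.
Cxcl9 was 1.76 higher (SE 0.569), Cxcl13 1.69 (SE 0.369), Ccr2 1.62 (SE 0.384), Ccl5 1.43 (SE 0.455), Ccl19 1.19 (SE 0.384) and Cxcl10 0.87 (SE 0.316). For Ccl8 the Nt8U difference was 0.90 (SE 0.567, limma unadjusted p = 0.178) and the samples overlapped with saline. Ccl21a was 1.39 higher on average, from -0.03 in the Cy3 samples and 2.80 in the Cy5 samples. The unadjusted count was 2 genes without saline replicate 1 (1.64% of all genes) or without Nt8U replicate 1 (2.54%), and 6 without Nt8U replicate 2 (4.77%).

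The 3 peptides were given at the same stated dose for the same 8 days, so they were also compared with each other. All 6 pairs of groups were compared, and with p-values adjusted over all genes and the 6 comparisons together no gene of the array passed 0.05. The lowest such adjusted p among the 34 genes was 0.468. The 3 comparisons with saline share the saline samples, and the comparisons between peptides reuse the peptide samples.

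**Figure D4:**
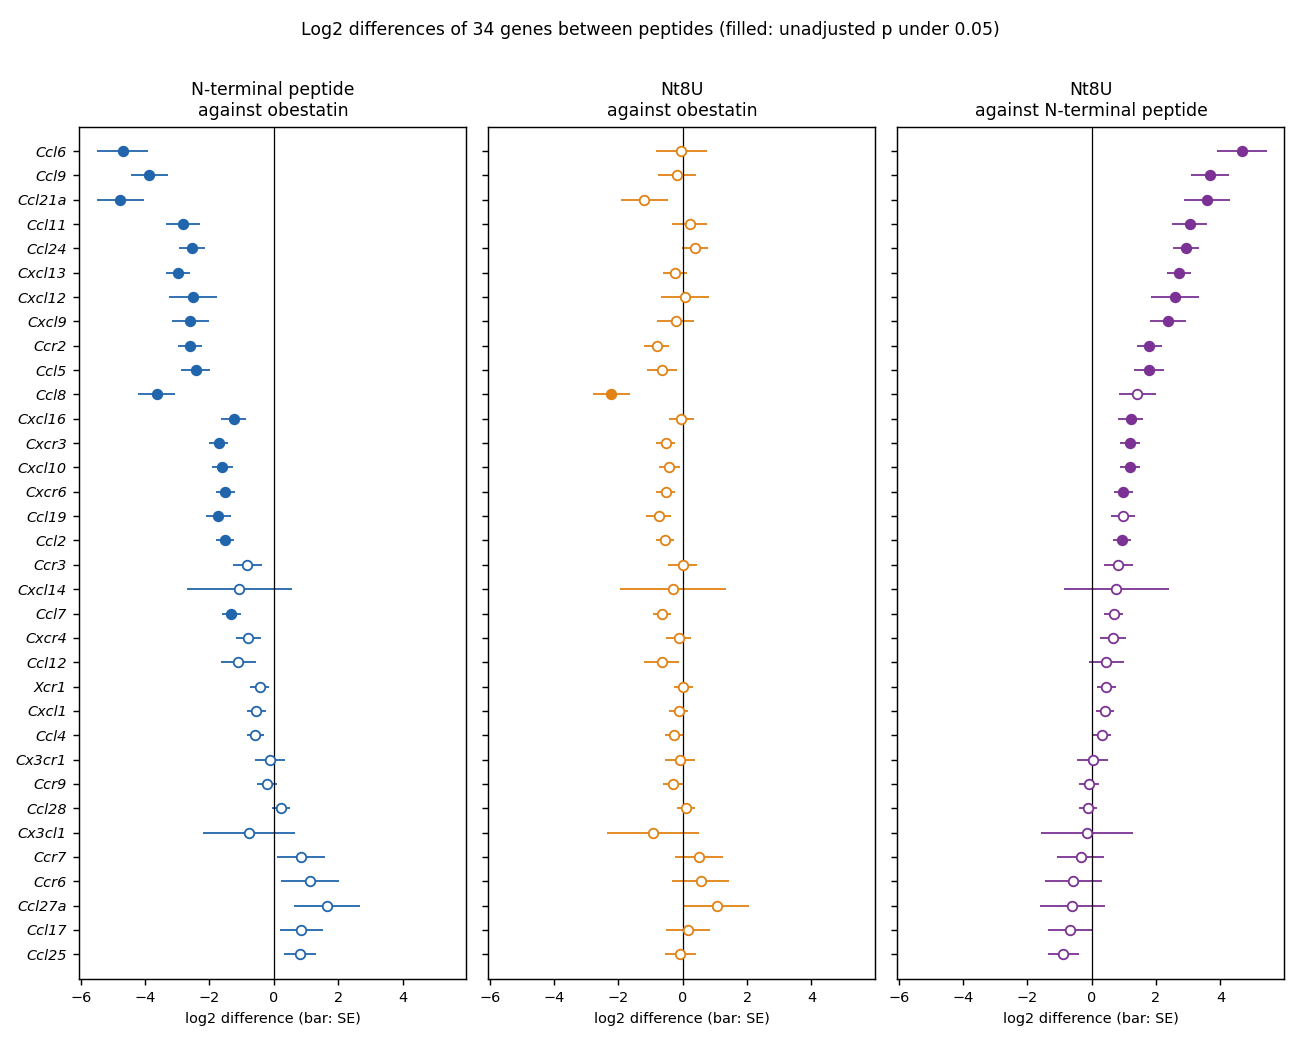
Log2 difference (x axis, bars are standard errors) of each of the 34 genes between the peptides, ordered by the difference of Nt8U from the N-terminal peptide; filled points have an unadjusted p under 0.05. There are 18 filled points for the N-terminal peptide against obestatin, all lower, 1 for Nt8U against obestatin (Ccl8, lower) and 15 for Nt8U against the N-terminal peptide, all higher.

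The N-terminal fragment and full obestatin lay furthest apart for Ccl21a, Ccl6, Ccl9 and Ccl8. Against obestatin, the N-terminal peptide had a median difference of -1.29 over the 34 genes (0.02 over all genes), with 18 genes lower at an unadjusted p under 0.05 and none higher, where 9.16% of all genes were lower and 1.28% higher. Its samples lay wholly below those of obestatin for 24 genes (22.7% of all genes) and wholly above them for 1 (15.5% of all genes). Ccl21a differed by -4.77 (SE 0.723), Ccl6 by -4.70 (SE 0.780), Ccl9 by -3.86 (SE 0.588) and Ccl8 by -3.64 (SE 0.567). Cxcl13 had the smallest unadjusted p (limma, 0.000648, adjusted p = 0.220) with a difference of -2.97. Ccr2 differed by -2.60 (SE 0.384) and Cxcr3 by -1.72 (SE 0.303). The lowest adjusted p among the 34 genes was 0.220.
Without obestatin replicate 1, a fit that assumes the remaining obestatin sample to vary like the other groups, 13 of the 34 genes passed an adjusted p of 0.05 in this comparison, 5 in the comparison of obestatin with saline and 1 in that of Nt8U with obestatin. In that fit 3537, 2757 and 1519 genes of the whole array passed, respectively, so the counts of these genes rest on that sample being left out. In the same fit 5 of the 34 genes were higher with the N-terminal peptide than with obestatin at an unadjusted p under 0.05, in place of 0, where 26.0% of all genes were higher.

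The analog and the fragment also stood apart, with higher means for Nt8U in most genes. Nt8U had a median difference of 0.88 from the N-terminal peptide (-0.16 over all genes), with 15 of the 34 genes higher at an unadjusted p under 0.05 and none lower, where 9.11% of all genes were higher and 2.01% lower. Both Nt8U samples lay above both N-terminal peptide samples for 20 genes (16.2% of all genes). The largest differences were those of Ccl6 at 4.66 (SE 0.780), Ccl9 at 3.68 (SE 0.588), Ccl21a at 3.58 (SE 0.723), Ccl11 at 3.04 (SE 0.535) and Ccl24 at 2.93 (SE 0.405). Cxcl13 had the smallest unadjusted p (limma, 0.000958, adjusted p = 0.184), with 9.70 and 8.56 for Nt8U against 6.85 and 5.97. The receptors Ccr2, Cxcr3 and Cxcr6 were 1.79, 1.19 and 0.98 higher. Over the receptors the median difference was 0.56, beside 1.08 over the ligands. The count of 15 genes was 9 without replicate 1 of the N-terminal peptide (7.08% of all genes) and 7 without replicate 1 of Nt8U (4.82%).

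Between Nt8U and obestatin the median difference was -0.20 (0.03 over all genes). At an unadjusted p under 0.05, 1 of the 34 genes was lower and none higher, where 1.02% of all genes were lower and 0.272% higher. That gene was Ccl8, with a difference of -2.22 (SE 0.567, limma unadjusted p = 0.0128, adjusted p = 0.994), a difference of -2.25 in the Cy3 samples and -2.19 in the Cy5 samples. Both Nt8U samples of Ccl8 (9.38 and 8.69) lay below both obestatin samples (11.62 and 10.88). Without obestatin replicate 2 or without Nt8U replicate 1 no gene of the 34 was lower at that p, and without obestatin replicate 1 there were 2 higher genes. In the fit without obestatin replicate 1, 19.9% of all genes were higher at that p. With all samples, the difference for Ccl6 was -0.04 with a 95% confidence interval from -2.09 to 2.00. For Ccl9 it was -0.18 with an interval from -1.72 to 1.36, and for Ccl24 0.38 with an interval from -0.68 to 1.44. The difference for Ccr2 was -0.81, with an interval from -1.82 to 0.20. For 14 of the 34 genes the interval passed 1 log2 unit on both sides of 0, and for 30 on at least 1 side, so the data do not show that the peptides act alike.

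Genes outside the name rule that belong to the same system were taken from lists. Of the atypical receptors and their relatives, which bind chemokines without classical signalling or bind the chemoattractant chemerin, 7 of 8 were measured. With obestatin 3 of the 7 were higher at an unadjusted p under 0.05, with Nt8U 4 and with the N-terminal peptide 0, beside 7.19%, 6.82% and 0.11% of all genes, and none was lower. Rarres2, which encodes chemerin, differed from saline by 1.80 with obestatin, -1.16 with the N-terminal peptide and 2.18 with Nt8U. Ackr2, a scavenger of inflammatory CC chemokines, differed by 1.41, -0.28 and 2.04. Pf4, the platelet and macrophage chemokine known as Cxcl4, differed by 2.29 (SE 0.456), -0.85 and 1.95, the largest of 4 chemokines with other names. Mif, an atypical chemokine-like cytokine, differed by -0.45, -0.53 and -0.38.
Of 26 listed signalling genes downstream of the receptors, 22 were measured. There were 4 higher with obestatin and 4 with Nt8U at an unadjusted p under 0.05, and 1 lower with the N-terminal peptide, where 7.19%, 6.82% and 0.654% of all genes were so. Arrb1, a beta-arrestin that ends receptor signalling, differed by 1.37 with obestatin, -0.11 with the N-terminal peptide and 1.58 with Nt8U. Pik3r5, a regulatory subunit of the G protein-driven PI3 kinase, differed by 1.58, 0.31 and 1.12, and Plcb2, a phospholipase activated by G proteins, by -0.90, -0.13 and -0.42. Of 22 listed inducers of chemokines 14 were measured, and 3 were higher with obestatin, 1 with Nt8U and none with the N-terminal peptide at that p, beside 7.19%, 6.82% and 0.11% of all genes. Tlr4, the lipopolysaccharide receptor, differed by 1.60, -0.14 and 1.98, and Irf7, a transcription factor of the interferon response, by 1.51, 0.33 and 0.45.

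Markers of other cell types ran beside the chemokine values. The median level over the 34 genes was 7.46 and 7.25 in the saline samples, 8.75 and 8.08 with obestatin, 7.03 and 6.54 with the N-terminal peptide, and 8.43 and 8.13 with Nt8U. The median of 16 measured macrophage markers of 17 listed was 9.29 and 8.55, 11.28 and 10.19, 8.94 and 7.94, and 11.32 and 9.97 in the same order. Both medians were higher in every obestatin and Nt8U sample than in every saline and N-terminal peptide sample. Summed over the macrophage list, linear intensities ran from 20300 to 40300 in saline, 47100 to 128000 with obestatin, 10300 to 27200 with the N-terminal peptide and 56500 to 100000 with Nt8U. Of 16 macrophage genes, 12 were higher with obestatin and 9 with Nt8U at an unadjusted p under 0.05. Of all genes, 7.19% and 6.82% were so. With the N-terminal peptide 2 macrophage genes were lower at that p, where 0.654% of all genes were lower. No macrophage gene passed the adjusted threshold. The median differences of the macrophage genes were 1.70 with obestatin, 1.42 with Nt8U and -0.61 with the N-terminal peptide.
The same groups were high for fat and vessel genes. Adipocyte genes (9 measured of 10 listed) differed from saline by a median of 1.98 with obestatin, -1.36 with the N-terminal peptide and 2.45 with Nt8U. Endothelial genes (8 of 8) differed by 2.01, -0.34 and 1.90. Epididymal duct genes (16 of 18) differed by medians of -5.05, -3.95 and -6.63, with 11, 12 and 16 of the 16 genes below saline. For monocyte genes (7 of 8) the medians were 0.71, -0.13 and 0.54, and for neutrophil genes (5 of 8) 1.42, -0.22 and 1.24. The part of these cell types in the chemokine values was not tested.

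**Figure D5:**
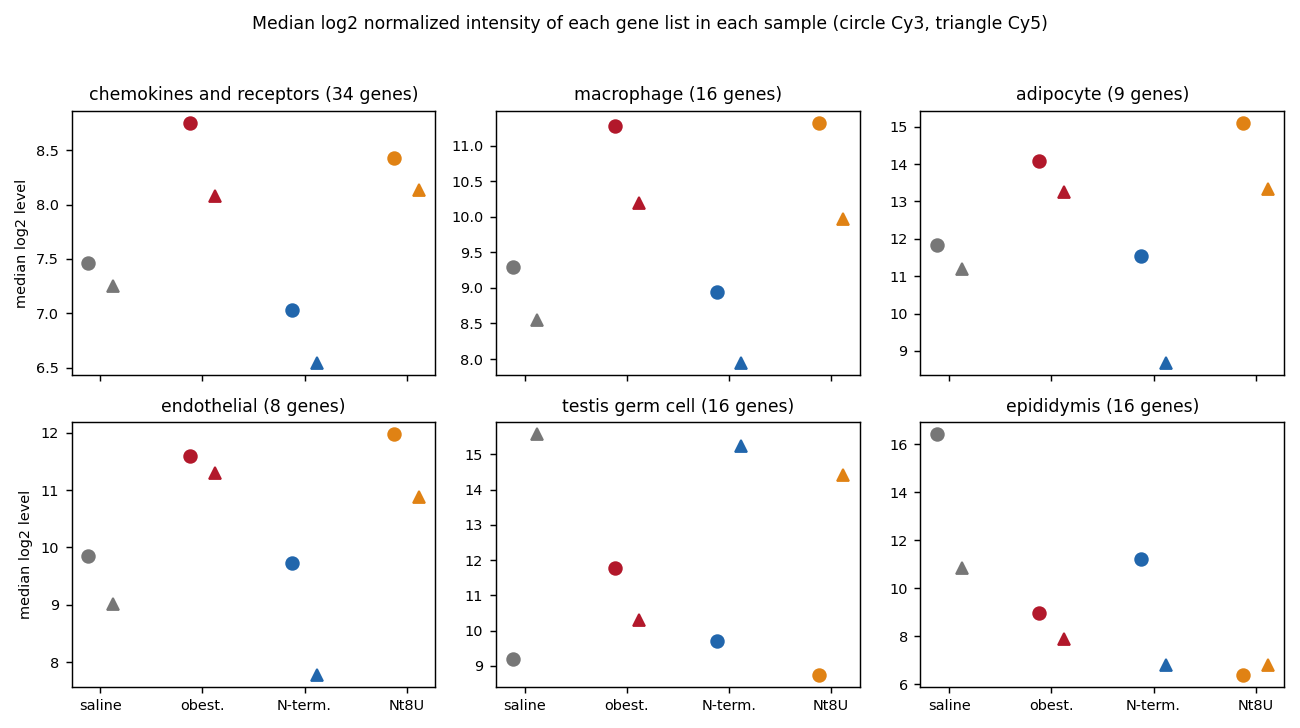
Median log2 normalized intensity (y axis, a separate scale in each panel) of the 34 chemokine and receptor genes and of 5 marker lists in each sample; circles are Cy3 and triangles Cy5. The chemokine panel is highest with obestatin (8.75 and 8.08) and Nt8U (8.43 and 8.13), as are the macrophage, adipocyte and endothelial panels, while the germ cell panel is high in 3 Cy5 samples.

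Replicates of a group differed by more than 2-fold for 12 of the 34 genes in saline (35.3%, against 51.4% of all genes), 8 with obestatin (23.5%, against 8.78%), 13 with the N-terminal peptide (38.2%, against 57.0%) and 17 with Nt8U (50%, against 36.4%). For 6 genes, Ccl6, Ccl8, Ccr2, Cxcl10, Cxcr3 and Cxcr6, replicate 2 was lower than replicate 1 by over 0.5 log2 units in the saline, N-terminal peptide and Nt8U groups. With obestatin replicate 2 was lower for these genes too, with differences of -1.76, -0.74, -1.41, -0.30, -0.47 and -0.45 in that order. Replicate 2, the Cy5 sample, was the higher one for 10 of the 34 genes in saline, 5 with obestatin, 10 with the N-terminal peptide and 11 with Nt8U. Levels of some receptors were dim in all samples, with Ccr9 between 6.33 and 6.91, Xcr1, the receptor of cross-presenting dendritic cells, between 6.44 and 7.14, and Cxcr4 between 6.39 and 7.49. The lowest signals found well above background lay between 5.6 and 6.08. Ccr9 was not above background in replicate 1 of saline and of the N-terminal peptide, nor Cxcr4 in the latter. Narrow ranges at such levels do not show stable expression.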

How the data were processed

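Intensities of 4 Agilent whole mouse genome arrays were read for 8 samples. The deposited intensities are the median signal and median background of each channel, made by Feature Extraction 10.5.1.1, per the file headers. The authors also deposited log2 values, which served as an alternative. They lie on a log2 scale centred on each 75th percentile, and each column followed the other channel of its array (r = 1.00), so channels were assigned by the deposited readme and every value keeps its group either way. The column medians lay between -2.90 and -2.14. The authors used GeneSpring GX 10 and divided the peptide values by those of saline with the same dye, per the deposited readme. The authors' deposited lists hold log2 fold values and p-values, of which only the probe names were used.

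Background was corrected by normexp (offset 50), dyes by loess within arrays and arrays by Aquantile, using R 4.3.3 and limma 3.58.1. Since an array holds a single group, Aquantile gives the group means one common distribution. Of 41174 non-control probes, 87 were dropped for an outlier mark and 28166 were kept as well above background in both samples of a group. The platform annotation named 32664 probes with 1 symbol, 45 with several and 8465 with none. The brightest probe stood for each of 15444 genes, and 8 of the 34 genes had more than 1 kept probe. All samples entered a single fit of group means and dye, moderated by eBayes and tested two-sided. The fit was tested on simulated data, where recovery of the set differences was required only at a spread well below that of these samples. That test does not show what the fit can detect at the real spread.

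Genes named with values are those with an unadjusted p under 0.05, the 4 highest and 4 lowest measured differences, and 8 ligand and receptor pairs; others named were chosen after their values were seen. The members and lists were chosen with earlier results of these data known. Marker, signalling and inducer lists are described by counts and medians. The alternatives were other background, dye and array normalizations, no filter on dim probes, the mean of all probes, no dye term, a germ cell score as covariate, and leaving out samples. The plan's fit was kept.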

Additional observations from a re-analysis of the deposited data

Results flagged for a closer look

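Receptor genes that did not pass the detection filter carried a signal that the comparisons do not use. Cxcr1, a receptor of neutrophils, was well above background in obestatin replicate 1, at 6.87 log2 units, and in no other sample, with 6.05 and 5.93 in the saline samples. Cxcr2, the related receptor for Cxcl1, was well above background in the same sample on 1 of its probes, at 6.56, against 6.14 and 6.03 with saline. The measured neutrophil marker genes summed to linear intensities of 4140 in that sample and 2170 in the other obestatin sample, against 497 and 1020 with saline. The sums were 1550 and 658 with the N-terminal peptide and 1690 and 1890 with Nt8U. Among these genes, Ltf measured 9.31 and 10.19 with obestatin and 6.09 and 6.16 with saline. It measured 10.21 in replicate 1 of the N-terminal peptide, so a high sum is not particular to obestatin. The part of the neutrophil genes in the Cxcr1 and Cxcr2 values was not tested.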

How the results depend on the processing

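Named genes gave 408 differences over the alternatives for obestatin against saline, of which 14 had the opposite sign to the value reported. This count was 24 of 306 for the N-terminal peptide against saline, 12 of 340 for Nt8U against saline, 15 of 442 for the N-terminal peptide against obestatin, 26 of 306 for Nt8U against obestatin and 11 of 391 for Nt8U against the N-terminal peptide. The median difference over the 34 genes kept its sign in all 6 comparisons under every alternative run. With the scanner software's processed signals it was 2.03 for obestatin against saline, -0.61 for the N-terminal peptide against saline, 1.36 for Nt8U against saline, -2.29 for the N-terminal peptide against obestatin and 1.95 for Nt8U against the N-terminal peptide. Without the filter on dim probes it was 0.30, 0.18, -0.49 and 0.15 for obestatin against saline, Nt8U against saline, N-terminal peptide against obestatin and Nt8U against the N-terminal peptide, with more dim genes included. With the authors' deposited log2 values the last of these comparisons gave 1.24 and the N-terminal peptide against obestatin -1.68. Without the 3 germ-cell-rich samples, and then without a dye term, the median for obestatin against saline was 0.80. The cause of these moves was not tested.

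Without the 3 germ-cell-rich samples, 9.75% of all genes were higher and 5.72% lower for obestatin against saline at an unadjusted p under 0.05. These shares were 10.8% and 12.4% for Nt8U against saline, and 3.67% and 7.55% for the N-terminal peptide against obestatin. They were 3.77% and 11.6% for Nt8U against obestatin, and 11.9% and 14.9% for Nt8U against the N-terminal peptide. That fit leaves 1 sample, labelled with Cy3, in each group other than obestatin, and has no dye term. Its spread comes from the obestatin samples alone, 1 per dye, so comparisons with obestatin mix dye and group. Comparisons among the other groups in that fit set 1 sample against 1. Its counts, added after seeing the data, were at an unadjusted p under 0.05 10 genes higher and 1 lower for obestatin against saline, 7 higher and 1 lower for Nt8U against saline, 14 lower for the N-terminal peptide against obestatin, 2 higher and 4 lower for Nt8U against obestatin, and 13 higher and 2 lower for Nt8U against the N-terminal peptide. Leaving out each sample in turn, genes past the adjusted threshold numbered 0 to 5 for obestatin against saline, 0 to 13 for the N-terminal peptide against obestatin, 0 to 1 for Nt8U against obestatin and 0 elsewhere, with every count above 0 from the fit without obestatin replicate 1. The unadjusted counts ranged from 9 to 17 higher and 0 to 3 lower for obestatin against saline, 0 to 2 lower for the N-terminal peptide against saline, 2 to 12 higher for Nt8U against saline, 0 to 5 higher and 15 to 18 lower for the N-terminal peptide against obestatin, 0 to 2 higher and 0 to 1 lower for Nt8U against obestatin, and 7 to 17 higher and 0 to 1 lower for Nt8U against the N-terminal peptide.

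Medians ranged from 1.01 to 1.38 for obestatin against saline, -0.35 to -0.13 for the N-terminal peptide, and 0.58 to 0.87 for Nt8U when each sample was left out. The highest counts of lower genes for obestatin against saline and of higher genes for Nt8U against obestatin came without obestatin replicate 1. In that fit 25% and 19.9% of all genes were so, respectively. No paired analysis was possible because the labels carry no replicate numbers, the numbers here were given in accession order, and each array held both samples of 1 group. The dye term was the only block, and leaving it out changed no call. Differences of genes near the background, such as Ccl4, Ccr3 and Cxcl1, are uncertain in size, and they enter the medians and counts above.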

Other observations

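Of 8 listed B cell genes 3 were measured, and Ighm, the heavy chain of immunoglobulin M, had the largest differences: 1.34 with obestatin, -1.26 with the N-terminal peptide and 2.72 with Nt8U. Its levels were 10.57 and 8.58 with saline, 11.60 and 10.22 with obestatin, 9.31 and 7.32 with the N-terminal peptide, and 13.02 and 11.57 with Nt8U, so that the Nt8U samples lay above all others except obestatin replicate 1, which exceeded the lower of them, and the obestatin samples overlapped with saline. Of 13 listed T and natural killer cell genes 10 were measured, with median differences of 0.21, -0.09 and 0.18 from saline. Nkg7, a granule protein of cytotoxic cells, differed by 1.39, -0.10 and 0.59, and Zap70, a T cell receptor kinase, by -1.66, -1.28 and -1.79.

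Dendritic cell genes (6 of 7) had medians of 0.17, -0.04 and 0.08, and mast cell and eosinophil genes (4 of 8) 0.23, -0.12 and 0.85, in the same order of obestatin, N-terminal peptide and Nt8U. Fibroblast genes (8 of 8) had 1.82, -1.13 and 1.64, and mesothelial genes (6 of 6) 0.25, -0.39 and 0.84. None of these differences passed the adjusted threshold.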
